A study of Mus musculus with 23 samples.

Results

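Replication of the genome in S phase rests on a set of genes that proliferating cells switch on together at the boundary between G1 and S. Of such DNA replication and G1/S genes, 48 were followed here across 5 groups of mouse oral tumours. They were chosen by name from what the proteins do, with earlier results of these data known, and all array probes annotated with their symbols were taken. Of the 48 genes, 45 had a probe (74 probes in all), and 41 had a probe detected on 4 or more of the 23 arrays, at a detection p-value below 0.05. These 41 are among the 9732 genes measured by that rule, each represented by its brightest probe. Gins1, Gins2 and Rfc3 had no probe under that symbol, and Orc1, Pola1, Pole2 and Slbp did not pass the detection rule, having been detected on 0, 2, 0 and 0 arrays.

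In G1, the origin recognition complex, Cdc6 and Cdt1 load the Mcm2 to Mcm7 helicase onto origins, a step called licensing. Kinases then recruit Cdc45 and the GINS complex, the helicase opens the DNA, and polymerases copy it with the sliding clamp Pcna, its loader RFC, the single-strand binding complex RPA and a supply of deoxynucleotides. Cyclin E and its kinase free the E2F factors from the retinoblastoma family, and E2F sites lie in front of many of these genes. In stratified epithelia the cells that replicate DNA lie mainly in the basal layer, and Notch1 is a receptor known for driving their exit towards differentiation.

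Messenger RNA was measured with Illumina MouseRef-8 v2 bead arrays, on 23 arrays, each from 1 oral tumour of C57BL/6 mice isolated after 21 days of growth. The groups were KHR with intact Notch1 (n = 5), KHR-N+/- with 1 Notch1 copy (n = 4), KHR-N-/- without Notch1 (n = 5), KR-N+/- with 1 copy (n = 5) and KR-N-/- without Notch1 (n = 4). The labels do not expand KHR and KR, name no promoter or cell type in which Notch1 was removed, and the KR type with intact Notch1 was not analysed here. They number biological replicates but do not say which tumours came from separate animals, so the p-values below measure only the spread between these samples. Levels are log2 intensities after background correction and quantile normalization, and a difference of 1 between them is a doubling. Array values are listed in the order of the replicate numbers. A gene passed where the Benjamini-Hochberg adjusted p of a limma fit to all 23 arrays and all 9732 genes was under 0.05. In a bulk tumour sample, fewer cells of a type and less RNA per cell cannot be told apart.

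Before normalization the mean array intensity ran from 142.4 to 366.4 and the detected probes from 10353 to 12654, and correlations between arrays ran from 0.939 to 0.993. The brightness moved with the groups: it was 204.1 to 299.3 in KHR, 282.9 to 366.4 in KHR-N+/- and 232.5 to 310.2 in KHR-N-/-, but 142.4 to 224.7 in 4 of 5 KR-N+/- arrays (360.4 in replicate 2) and 149.8 to 260.9 in KR-N-/-. Notch1 measured 8.15, 7.81, 8.05, 8.66 and 8.67 in KHR, 6.60, 7.52, 5.68 and 7.40 in KHR-N+/- and 5.80, 5.77, 5.72, 5.40 and 5.68 in KHR-N-/- tumours. It measured 7.87, 7.60, 8.13, 7.44 and 7.57 in KR-N+/- and 6.08, 6.52, 5.89 and 5.61 in KR-N-/- tumours. The array labelled KHR-N+/- replicate 3 fell within the KHR-N-/- values, and the sources used here do not say whether the probe lies in the deleted part of the gene. KHR replicate 5 stood apart from the other KHR arrays on fibroblast markers, with a mean of 7.24 over 11 genes against 6.18 to 6.44 in the others. Counts without these arrays are given beside the comparisons they enter. All 8 markers of basal stratified epithelium were measured, with means over the list from 9.80 to 11.22 on the 23 arrays.

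KR-N+/- tumours had the lowest replication gene levels and the 3 KHR-type groups the highest. The mean level over the 41 genes in the KHR type was 7.24 ± 0.15 with intact Notch1, 7.23 ± 0.18 with 1 copy and 7.12 ± 0.03 without it (SD, n = 5, 4 and 5). In the KR type it was 6.63 ± 0.13 with 1 copy and 6.95 ± 0.12 without Notch1 (SD, n = 5 and 4). The 5 KR-N+/- arrays (6.44 to 6.78) lay below each of the other 18, and the KR-N-/- arrays (6.84 to 7.11) overlapped the lower end of the KHR-type arrays, whose highest was 7.48. By gene, KR-N+/- had the lowest group mean for 35 of the 41, KR-N-/- for 5 and KHR-N+/- for 1. The highest mean was in KHR for 17 genes, in KHR-N+/- for 17, in KR-N-/- for 6 and in KHR-N-/- for 1. The ranges of the 3 KHR-type groups overlapped, and the 5 KHR-N-/- arrays lay closest together (7.08 to 7.17).

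**Figure D1:**
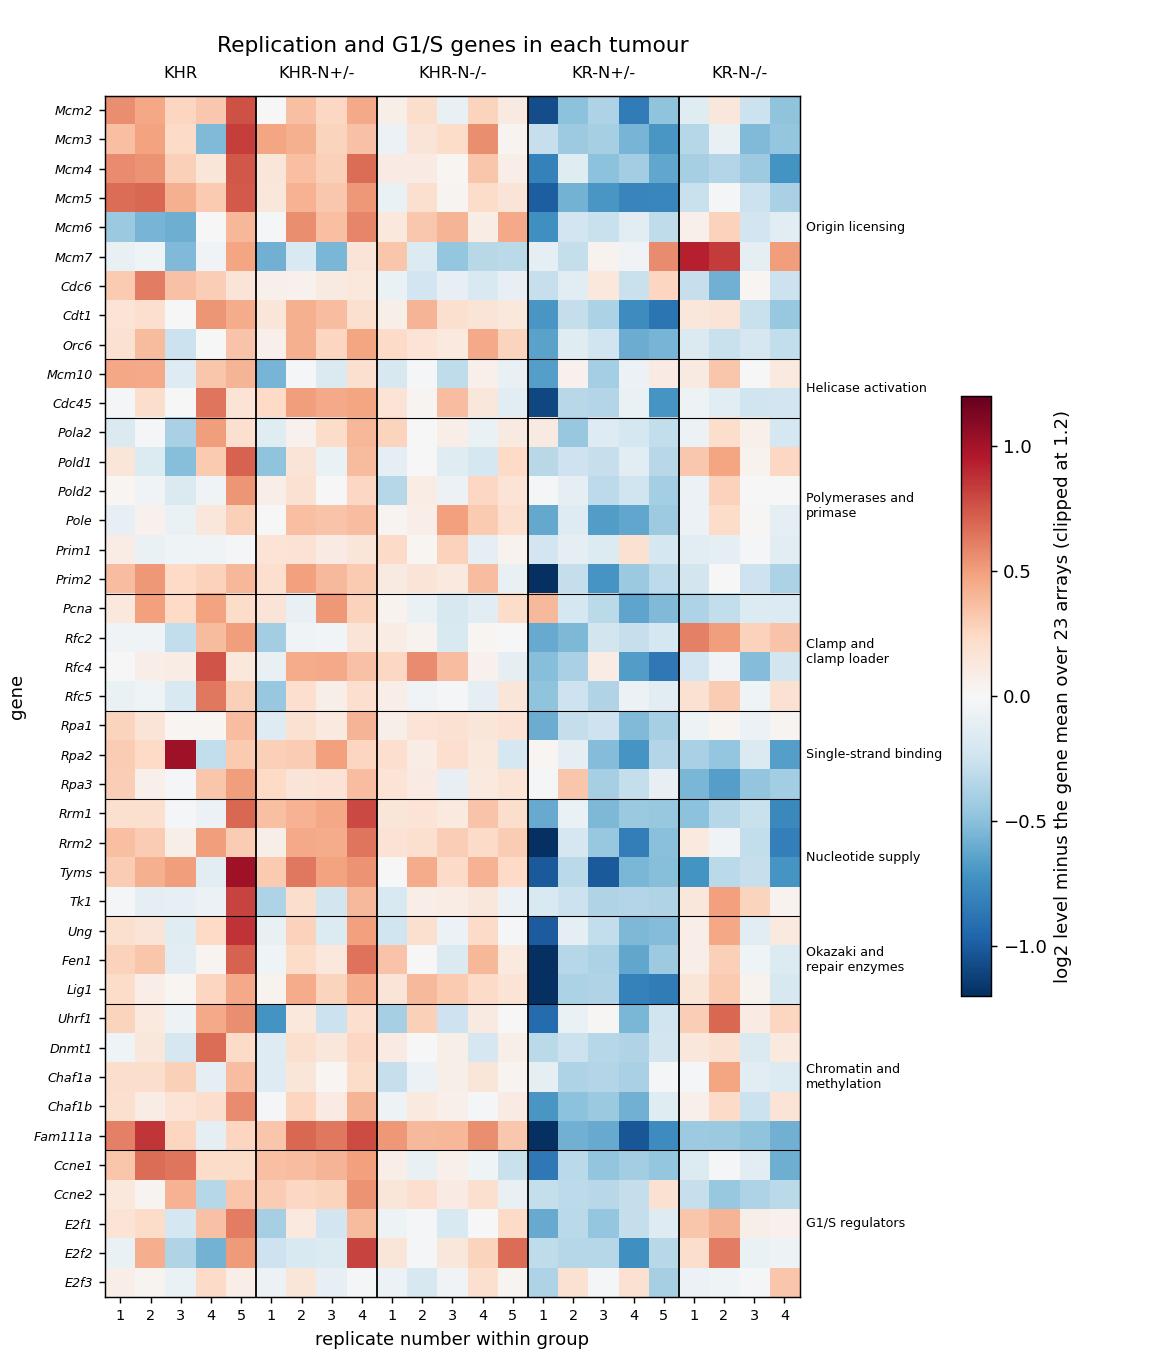
Levels of the 41 measured genes (rows, by role) in each of the 23 tumours (columns, by group and replicate number). Colour gives the log2 level minus the gene's mean over all arrays; the KR-N+/- columns are blue for most genes, while Mcm7 and Rfc2 are highest in KR-N-/-.

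Skeletal muscle transcripts ran the other way. The mean over 12 muscle markers was 7.45 ± 0.20 in KHR, 7.92 ± 0.24 in KHR-N+/-, 8.30 ± 0.16 in KHR-N-/-, 9.04 ± 0.34 in KR-N+/- and 8.73 ± 0.50 in KR-N-/- tumours (SD, n = 5, 4, 5, 5 and 4). Every KR-N+/- array (8.79 to 9.49) lay above every KHR-type array (7.28 to 8.47), and the KR-N-/- arrays (8.21 to 9.37) overlapped both. Basal epithelium markers did not follow the replication genes: their means were 10.22 ± 0.25, 10.14 ± 0.27, 10.73 ± 0.27, 10.28 ± 0.12 and 11.01 ± 0.17 in the same order. The part of muscle in the differences below was not tested, and counts from fits that carry the muscle mean as a covariate are given beside each.

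**Figure D2:**
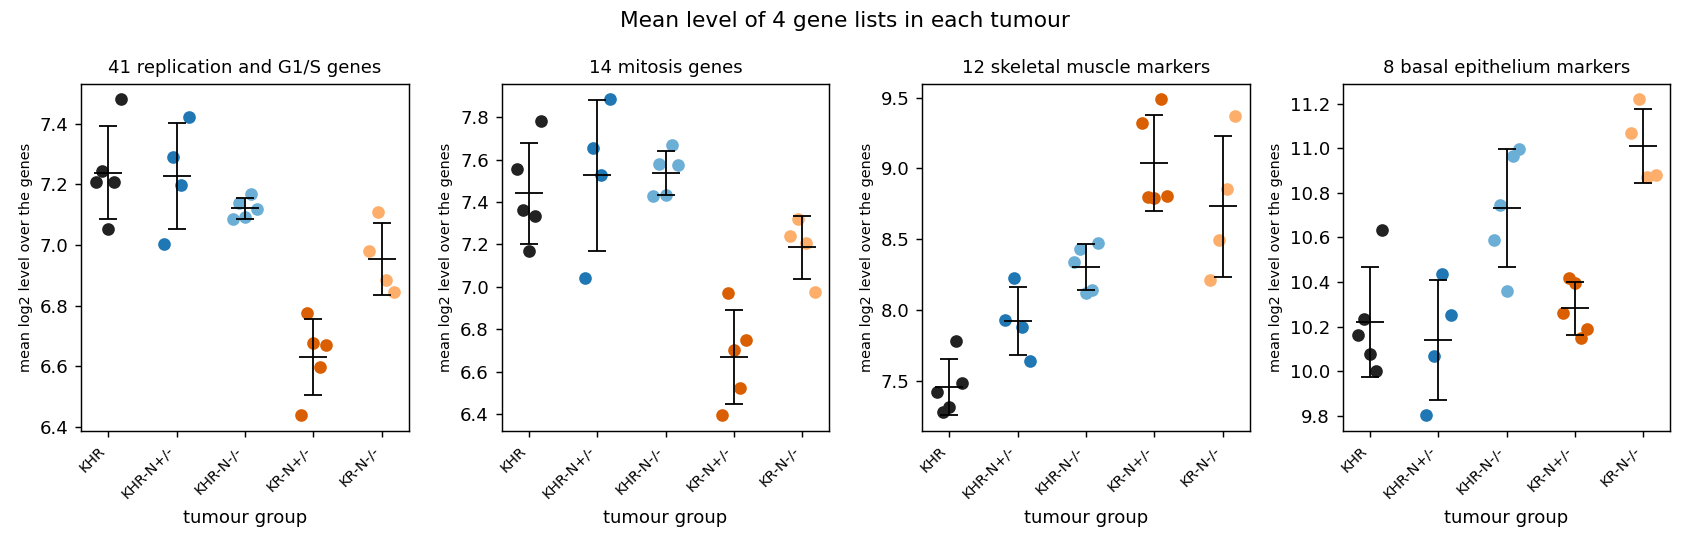
Mean log2 level per tumour over the 41 replication and G1/S genes, 14 mitosis genes, 12 skeletal muscle markers and 8 basal epithelium markers (points), with the group mean and SD (bars). The KR-N+/- tumours are lowest in the first 2 panels and highest in the muscle panel.

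The promoters of some of these genes carry the letters that E2F factors are known to bind. RefSeq windows of 300 bases (250 before to 50 after an annotated start, build GRCm38.p6) were matched by symbol for 36 of the 41 genes, 47 windows in all; Ccne2, Mcm4, Pole, Prim2 and Rfc2 were not matched. TTTCGCGC or TTTGGCGC was searched on both strands, where the reverse reads GCGCGAAA or GCGCCAAA, and the letters can overlap each other. One or the other stood in the windows of 9 genes (25% of the 36): Cdt1, Dnmt1, E2f2, Lig1, Mcm3, Mcm5, Mcm6, Mcm7 and Uhrf1. Among all genes tested, 137 of 7888 with a window held them (1.74%), and among all genes with a window 251 of 27025 did (0.929%). TTTGAA, a letter run found at mitotic promoters, was in 14.9% of the members' windows, 12% of the windows of all genes tested and 17.9% of all windows. CCAAT was in 57.4%, 37.5% and 37.4%. A match is only a run of letters and not a bound site.

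The windows of 4 of the 9 genes follow: those of Mcm5, Lig1 and Cdt1 because the genes passed in 3, 2 and 2 comparisons below, and that of Mcm6, which passed in 1, because it holds 3 matches. The Mcm5 window (chr8:75109259-75109558, plus strand) holds 2 overlapping matches that begin 153 and 149 bases before the start. The Mcm6 window (chr1:128359656-128359955, minus strand) holds 3, which begin 110, 106 and 47 bases before it. In Cdt1 (chr8:122567765-122568064, plus strand) the match begins 32 bases after the start, and in Lig1 (chr7:13278576-13278875, plus strand, 1 of its 3 windows) 26 bases after it. Capitals mark these matches, and all windows read 5′ to 3′ on the gene's strand.
Mcm5: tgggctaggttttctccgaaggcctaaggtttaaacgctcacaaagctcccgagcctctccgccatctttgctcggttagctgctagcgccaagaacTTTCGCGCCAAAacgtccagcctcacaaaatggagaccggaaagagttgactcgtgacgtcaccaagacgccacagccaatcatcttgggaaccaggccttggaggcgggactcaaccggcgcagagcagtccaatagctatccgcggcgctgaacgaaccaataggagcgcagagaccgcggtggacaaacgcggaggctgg
Mcm6: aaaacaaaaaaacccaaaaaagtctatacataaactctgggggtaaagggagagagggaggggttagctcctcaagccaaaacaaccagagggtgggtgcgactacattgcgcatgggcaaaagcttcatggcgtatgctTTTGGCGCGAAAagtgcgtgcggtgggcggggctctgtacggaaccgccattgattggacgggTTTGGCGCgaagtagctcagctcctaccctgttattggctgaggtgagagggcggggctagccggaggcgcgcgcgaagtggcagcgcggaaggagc
Cdt1: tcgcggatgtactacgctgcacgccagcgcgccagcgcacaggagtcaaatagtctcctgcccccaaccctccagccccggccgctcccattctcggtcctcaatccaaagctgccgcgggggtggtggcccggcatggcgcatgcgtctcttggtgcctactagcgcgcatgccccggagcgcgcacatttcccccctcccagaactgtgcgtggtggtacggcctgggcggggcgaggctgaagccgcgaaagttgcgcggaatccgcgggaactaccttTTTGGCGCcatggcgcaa
Lig1: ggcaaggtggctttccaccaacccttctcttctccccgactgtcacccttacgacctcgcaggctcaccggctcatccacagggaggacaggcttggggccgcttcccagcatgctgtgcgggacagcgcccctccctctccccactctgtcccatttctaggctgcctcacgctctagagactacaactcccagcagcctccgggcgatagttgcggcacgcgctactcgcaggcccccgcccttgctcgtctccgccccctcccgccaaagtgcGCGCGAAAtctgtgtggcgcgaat

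KHR-N+/- and KR-N+/- tumours, both labelled with 1 Notch1 copy, differ in tumour type, and here the replication genes were furthest apart. Notch1 itself measured 6.80 ± 0.85 in KHR-N+/- and 7.72 ± 0.28 in KR-N+/- tumours (SD, n = 4 and 5). Tumour type and Notch1 level can therefore not be told apart in this comparison. Of the 41 genes, 22 were higher in KHR-N+/- tumours, 0 were lower and 19 did not pass. Over all genes tested, 3.2% passed as higher and 2.37% as lower, 5.57% in all. The median difference of the 41 was 0.62 against 0.01 for all 9732 genes, and 40 of the 41 lay above 0, the exception being Mcm7 at -0.32 (SE 0.22, adjusted p = 0.442), which was above 0 under median scaling of the arrays. For 24 genes every KHR-N+/- array was above every KR-N+/- array, which held for 4.79% of all genes, and for 0 every one was below (4.61% of all genes). The differences reached 2.86-fold for Fam111a, 2.25-fold for Tyms, 2.16-fold for Mcm5, 2.09-fold for Rrm2 and 2.08-fold for Lig1.

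Among the licensing genes, 7 of 9 rose in this comparison. Mcm5, a subunit of the helicase ring, measured 10.18, 10.19, 9.93, 9.82 and 10.25 in KHR, 9.64, 9.92, 9.84 and 10.03 in KHR-N+/- and 9.43, 9.71, 9.55, 9.73 and 9.67 in KHR-N-/- tumours. It measured 8.52, 8.95, 8.81, 8.72 and 8.73 in KR-N+/- and 9.25, 9.49, 9.25 and 9.12 in KR-N-/- tumours. The lowest arrays were KR-N+/-, the KR-N-/- arrays came next, and neither overlapped the KHR or KHR-N+/- arrays. Its difference between KHR-N+/- and KR-N+/- was 1.11 (SE 0.11, adjusted p = 2.25e-06).

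Mcm2, its neighbour in the ring, measured 8.21, 8.12, 7.91, 7.98 and 8.41 in KHR, 7.65, 8.01, 7.90 and 8.11 in KHR-N+/- and 7.72, 7.86, 7.56, 7.92 and 7.76 in KHR-N-/- tumours. In the other type Mcm2 measured 6.59, 7.16, 7.28, 6.81 and 7.17 in KR-N+/- and 7.51, 7.79, 7.39 and 7.16 in KR-N-/- tumours. All KR-N+/- arrays lay below all KHR-type arrays, and KR-N+/- replicate 1 was lowest of the 23. The difference between the types with 1 Notch1 copy was 0.91 (SE 0.15, adjusted p = 0.000571).

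Mcm4, a further ring subunit, measured 10.55, 10.52, 10.27, 10.13 and 10.73 in KHR, 10.13, 10.35, 10.27 and 10.65 in KHR-N+/- and 10.08, 10.08, 10.01, 10.32 and 10.06 in KHR-N-/- tumours. Mcm4 measured 9.18, 9.83, 9.49, 9.57 and 9.36 in KR-N+/- and 9.58, 9.64, 9.55 and 9.26 in KR-N-/- tumours. All 9 KR-type arrays lay below all 14 KHR-type arrays, and the 2 KR groups overlapped. It was higher in KHR-N+/- than in KR-N+/- tumours by 0.86 (SE 0.14, adjusted p = 0.000526).

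Cdt1, which loads the helicase together with Cdc6, measured 7.64, 7.67, 7.48, 8.00 and 7.92 in KHR, 7.62, 7.90, 7.84 and 7.67 in KHR-N+/- and 7.54, 7.88, 7.67, 7.63 and 7.60 in KHR-N-/- tumours. Cdt1 measured 6.78, 7.19, 7.09, 6.72 and 6.60 in KR-N+/- and 7.61, 7.63, 7.21 and 7.02 in KR-N-/- tumours. The KR-N+/- arrays were all below the KHR-type arrays, while KR-N-/- replicates 1 and 2 reached the KHR range and replicates 3 and 4 did not. The difference was 0.88 (SE 0.14, adjusted p = 0.000625).

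Orc6, a subunit of the origin recognition complex, measured 7.97, 8.17, 7.54, 7.80 and 8.14 in KHR, 7.85, 8.22, 8.05 and 8.27 in KHR-N+/- and 8.02, 7.95, 7.91, 8.25 and 8.06 in KHR-N-/- tumours. Orc6 measured 7.15, 7.65, 7.56, 7.20 and 7.24 in KR-N+/- and 7.62, 7.52, 7.59 and 7.50 in KR-N-/- tumours. The KR-type arrays overlapped the KHR group only through KHR replicate 3, and lay below all KHR-N+/- and KHR-N-/- arrays. The difference with 1 Notch1 copy was 0.74 (SE 0.13, adjusted p = 0.0014). Of the other ring subunits, Mcm3 rose by 0.85 (SE 0.18, adjusted p = 0.006) and Mcm6 by 0.70 (SE 0.18, adjusted p = 0.0206), and the 2 other Mcm6 probes gave 1.195 and 1.201. Cdc6 differed by 0.14 (SE 0.12, adjusted p = 0.55), which did not pass.

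Of the 2 measured helicase activation genes, Cdc45, which joins the helicase to form its active state, rose by 0.93 (SE 0.16, adjusted p = 0.00108), from 5.41 ± 0.39 in KR-N+/- to 6.34 ± 0.12 in KHR-N+/- tumours (SD, n = 5 and 4). Mcm10 differed by 0.06 (SE 0.16, adjusted p = 0.878) and did not pass. Among 6 polymerase and primase genes 2 passed, both higher. Pole, the catalytic subunit of the leading strand polymerase epsilon, measured 5.49, 5.64, 5.50, 5.72 and 5.87 in KHR, 5.58, 5.94, 5.92 and 5.96 in KHR-N+/- and 5.62, 5.67, 6.07, 5.90 and 5.79 in KHR-N-/- tumours. Pole measured 4.97, 5.43, 4.92, 4.96 and 5.15 in KR-N+/- and 5.51, 5.80, 5.60 and 5.47 in KR-N-/- tumours. The KR-N+/- arrays lay below all others, and the KR-N-/- arrays overlapped the KHR-type arrays. Pole rose by 0.76 (SE 0.12, adjusted p = 0.000653) and the primase subunit gene Prim2 by 0.95 (SE 0.15, adjusted p = 0.00044). Prim1, the other primase subunit, was detected on 6 arrays only (4 KHR-N+/- and 2 KHR-N-/-), so no fold is given for it.

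Of the 4 measured genes of the sliding clamp and its loader 1 passed, the loader subunit gene Rfc4, at 0.76 (SE 0.18, adjusted p = 0.0137). Pcna, the clamp itself, was detected on 18 arrays and differed by 0.48 (SE 0.16, adjusted p = 0.0754). Of the RPA genes 2 of 3 rose, Rpa1 and Rpa2. Rpa1, the large subunit, measured 10.33, 10.21, 10.09, 10.09 and 10.43 in KHR, 9.91, 10.24, 10.18 and 10.47 in KHR-N+/- and 10.13, 10.23, 10.25, 10.20 and 10.24 in KHR-N-/- tumours. Rpa1 measured 9.47, 9.78, 9.81, 9.53 and 9.67 in KR-N+/- and 10.00, 10.09, 10.00 and 10.09 in KR-N-/- tumours. The lowest 5 of the 23 were the KR-N+/- arrays, with the KR-N-/- arrays next to the lower KHR-type ones. Rpa1 rose by 0.55 (SE 0.11, adjusted p = 0.00278) and Rpa2 by 0.67 (SE 0.18, adjusted p = 0.0316).

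Nucleotide supply held the largest median difference of any role, 1.00 over 4 genes, of which 3 rose. Rrm1, the large subunit of ribonucleotide reductase, measured 8.26, 8.27, 8.06, 8.00 and 8.76 in KHR, 8.43, 8.49, 8.54 and 8.86 in KHR-N+/- and 8.22, 8.24, 8.19, 8.41 and 8.28 in KHR-N-/- tumours. Rrm1 measured 7.46, 7.99, 7.53, 7.63 and 7.62 in KR-N+/- and 7.58, 7.73, 7.80 and 7.30 in KR-N-/- tumours. KR-N+/- replicate 2 was the highest of the KR-type arrays and stayed just below the lowest KHR-type array, KHR replicate 4. The difference was 0.94 (SE 0.14, adjusted p = 0.000351), and that of Rrm2, the small subunit, was 1.07 (SE 0.18, adjusted p = 0.00111).

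Tyms, thymidylate synthase, measured 7.15, 7.27, 7.34, 6.72 and 7.86 in KHR, 7.16, 7.48, 7.33 and 7.39 in KHR-N+/- and 6.85, 7.29, 7.07, 7.26 and 7.09 in KHR-N-/- tumours. Tyms measured 5.83, 6.52, 5.84, 6.30 and 6.34 in KR-N+/- and 6.13, 6.52, 6.57 and 6.13 in KR-N-/- tumours. The KR groups overlapped each other and lay below all KHR-type arrays. Tyms rose by 1.17 (SE 0.18, adjusted p = 0.000351) on its brightest probe. Its 2 other kept probes gave 0.84 and 0.15, a spread of 1.03 that was the widest among the members, and the dimmest of the 3 was detected on 8 arrays. Tk1, which salvages thymidine, differed by 0.30 (SE 0.17, adjusted p = 0.316) and did not pass.

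Okazaki fragments are trimmed by Fen1 and joined by Lig1, and both genes rose. Fen1, a flap endonuclease, measured 8.86, 8.92, 8.46, 8.62 and 9.29 in KHR, 8.54, 8.81, 8.71 and 9.23 in KHR-N+/- and 8.93, 8.59, 8.41, 8.99 and 8.70 in KHR-N-/- tumours. Fen1 measured 7.38, 8.24, 8.21, 7.96 and 8.14 in KR-N+/- and 8.66, 8.87, 8.53 and 8.42 in KR-N-/- tumours. KR-N+/- replicate 1 was far below the others at 7.38, and all 5 KR-N+/- arrays were below the rest. The difference was 0.83 (SE 0.18, adjusted p = 0.00775).

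Lig1, a DNA ligase, measured 8.17, 8.03, 7.98, 8.21 and 8.40 in KHR, 7.99, 8.39, 8.22 and 8.38 in KHR-N+/- and 8.11, 8.34, 8.26, 8.18 and 8.11 in KHR-N-/- tumours. Lig1 measured 6.55, 7.57, 7.59, 7.14 and 7.11 in KR-N+/- and 8.10, 8.27, 7.99 and 7.76 in KR-N-/- tumours. At the bottom of the range, with a gap to all others, stood the KR-N+/- arrays, and the KR-N-/- arrays overlapped the KHR-type arrays. Lig1 rose by 1.05 (SE 0.16, adjusted p = 0.000351), while its 3 dimmer kept probes gave 0.65, 0.59 and 0.06. Ung, which removes uracil from DNA, differed by 0.62 (SE 0.19, adjusted p = 0.0518) and did not pass, although its second probe did (0.53, adjusted p = 0.0203 over all kept probes).

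Of 5 chromatin and methylation genes 2 rose. Fam111a, known in human cells as a protease that acts at replication forks with PCNA, had the largest difference of all members. Fam111a measured 7.99, 8.24, 7.65, 7.27 and 7.64 in KHR, 7.72, 8.08, 8.02 and 8.17 in KHR-N+/- and 7.90, 7.77, 7.78, 7.94 and 7.71 in KHR-N-/- tumours. In the KR type Fam111a measured 5.83, 6.81, 6.78, 6.36 and 6.63 in KR-N+/- and 6.95, 6.94, 6.91 and 6.81 in KR-N-/- tumours. All 9 KR-type arrays lay below all 14 KHR-type arrays. Its difference with 1 Notch1 copy was 1.51 (SE 0.18, adjusted p = 1.1e-05).

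Chaf1b, a subunit of the CAF-1 complex that places histones on new DNA, measured 7.46, 7.36, 7.44, 7.48 and 7.84 in KHR, 7.25, 7.53, 7.37 and 7.68 in KHR-N+/- and 7.21, 7.39, 7.33, 7.24 and 7.37 in KHR-N-/- tumours. Chaf1b measured 6.57, 6.78, 6.82, 6.69 and 7.12 in KR-N+/- and 7.33, 7.50, 7.02 and 7.43 in KR-N-/- tumours. The KR-N+/- arrays were below all others except the KR-N-/- replicate 3, which KR-N+/- replicate 5 passed. The difference was 0.66 (SE 0.12, adjusted p = 0.00224). Chaf1a, Dnmt1, the maintenance DNA methyltransferase, and Uhrf1, which brings Dnmt1 to new DNA, differed by 0.31, 0.41 and 0.19, with adjusted p of 0.184, 0.0714 and 0.641.

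Of 5 G1/S regulators the 2 cyclin E genes rose, and the E2f genes did not pass. Ccne1 measured 5.97, 6.31, 6.28, 5.86 and 5.85 in KHR, 6.00, 6.00, 6.05 and 6.12 in KHR-N+/- and 5.71, 5.55, 5.70, 5.59 and 5.37 in KHR-N-/- tumours. Ccne1 measured 4.78, 5.31, 5.16, 5.22 and 5.18 in KR-N+/- and 5.47, 5.62, 5.51 and 5.05 in KR-N-/- tumours. The KR-N+/- arrays lay below all KHR-type arrays, and KR-N+/- replicate 1 was the lowest of all. Ccne1 rose by 0.92 (SE 0.13, adjusted p = 0.000166).

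Ccne2 was near the detection limit: it was detected on 4 of 5 KHR, all KHR-N+/- and KHR-N-/-, 1 of 5 KR-N+/- and 0 of 4 KR-N-/- arrays. Ccne2 measured 4.73, 4.64, 5.02, 4.26 and 4.94 in KHR, 4.91, 4.86, 4.87 and 5.14 in KHR-N+/- and 4.75, 4.80, 4.70, 4.80 and 4.51 in KHR-N-/- tumours. Ccne2 measured 4.31, 4.29, 4.27, 4.32 and 4.79 in KR-N+/- and 4.33, 4.15, 4.23 and 4.28 in KR-N-/- tumours. All KHR-N+/- arrays were above all KR-type arrays, while the KHR and KHR-N-/- values overlapped the KR-type range, in which KR-N+/- replicate 5 was highest. The fitted difference with 1 Notch1 copy was 0.55 (SE 0.13, adjusted p = 0.0142), against a group in which 4 of 5 arrays were not above background, so it gives no reliable size. E2f1, E2f2 and E2f3, activators of this gene set, differed by 0.33, 0.46 and 0.07, with adjusted p of 0.229, 0.254 and 0.803.

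Of the 9 genes with E2F-type letters 5 rose in this comparison, of the 27 with a window and no such letters 13, and of the 5 without a window 4. The count of 22 ran from 19 to 24 when 1 array was left out in turn (19 without KHR-N+/- replicate 3) and was 21 without that array and KHR replicate 5. Calls that were lost in these fits were those of Mcm6 (4 of 23 fits), Rpa2 (7), Rfc4 (2) and Ccne2 (1, without KHR-N+/- replicate 4), at adjusted p up to 0.0739, 0.102, 0.0547 and 0.0554. The Mcm6 call was lost without KHR-N+/- replicates 2, 3 or 4 or KR-N+/- replicate 1, that of Rfc4 without KHR-N+/- replicates 2 or 3, and that of Rpa2 without any 1 KHR-N+/- array or KR-N+/- replicates 3, 4 or 5. Scaling the arrays to their medians in place of quantile normalization gave 39 calls, with a median of 1.39 over the members and 0.65 over all genes. Calls as higher were then not particular to the members. In that fit 14 of 14 mitosis genes, 5 of 11 fibroblast and 3 of 8 suprabasal epithelium markers passed as higher with 0 lower, and 0 of 7 endothelial markers passed. Muscle markers fell in the same comparison, 9 of 12 with 0 higher and a median of -1.02, and their part in it was not tested. Under median scaling the muscle median was -0.12 against 0.65 for all genes, with 1 of 12 lower, 0 higher and 4 above 0. With the muscle mean as a covariate 0 of 41 genes passed, of 12 genes that passed in all, while the median difference of the 41 was 0.44 against 0.01 for all genes, and Mcm5 was at 0.86 (adjusted p = 0.0563). Without the 3 arrays highest in muscle markers (KR-N+/- replicates 1 and 4 and KR-N-/- replicate 4), a choice made after the data were seen, 16 passed with a median of 0.55. The KR-N+/- arrays were also dimmer, apart from replicate 2, and with array intensity as a covariate 15 of the 41 genes passed, with a median of 0.54.

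**Figure D3:**
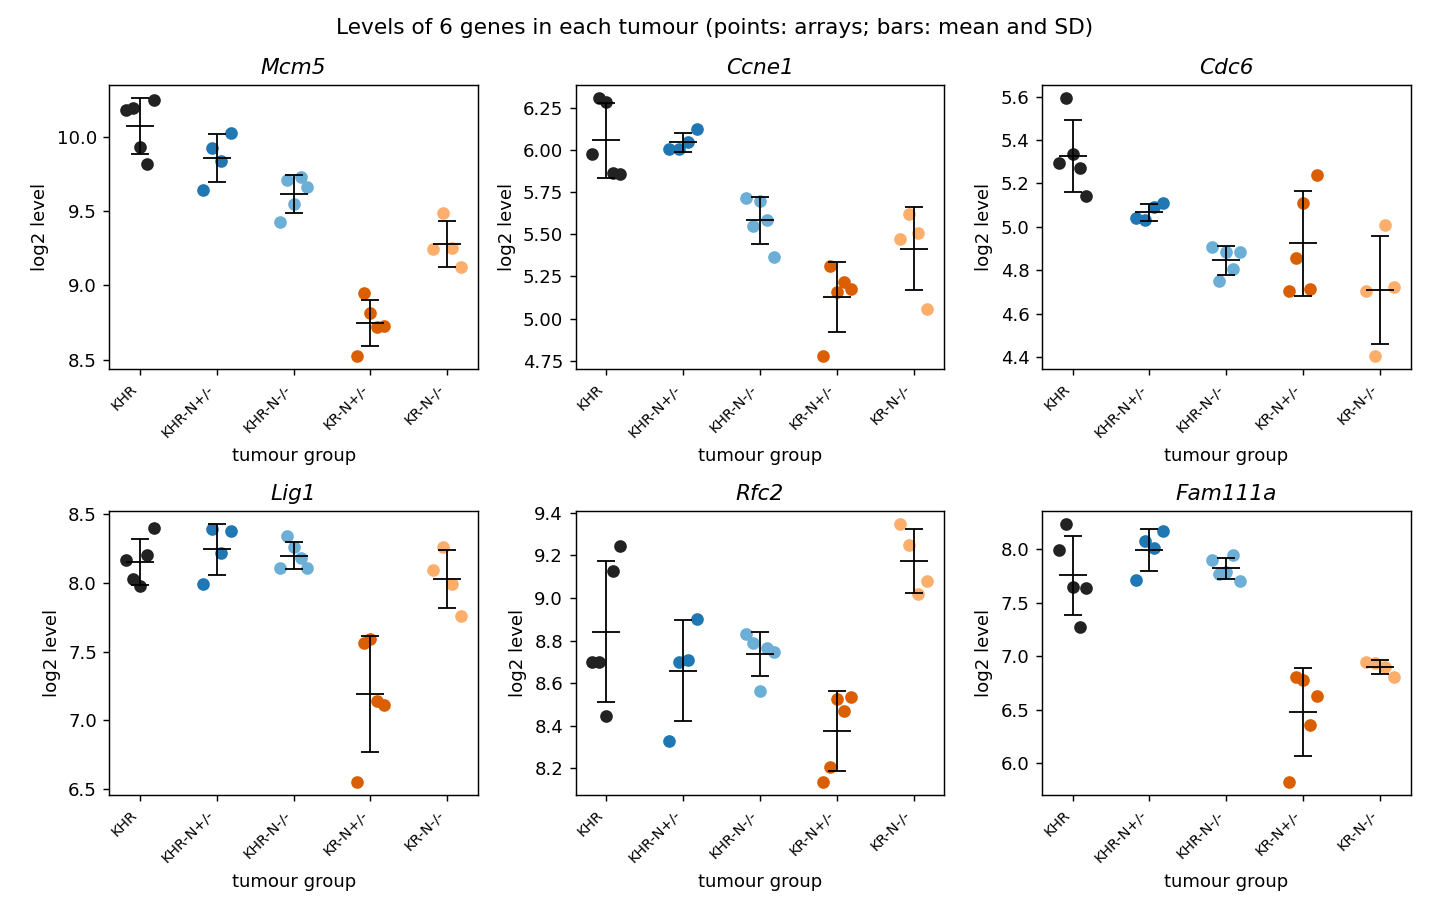
Log2 levels of Mcm5, Ccne1, Cdc6, Lig1, Rfc2 and Fam111a in each tumour (points), with the group mean and SD (bars); each panel has its own axis. Lig1 is low in the KR-N+/- tumours alone, Fam111a is low in both KR groups, and Cdc6, Mcm5 and Ccne1 are lower in KHR-N-/- than in KHR tumours.

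In KR tumours the comparison of Notch1-null with heterozygous tumours asks what loss of the second copy does. It uses the same KR-N+/- arrays as the comparison above, so the results of both rest in part on the same 5 tumours. Of the 41 genes, 14 were higher in KR-N-/- and 1, Rpa3, was lower. Over all genes tested 9.62% passed as higher and 6.63% as lower. The median difference was 0.37 against 0.04 for all genes, with 36 of the 41 above 0. The groups did not overlap for 13 genes in the upward direction (10.8% of all genes) and for 1 in the downward direction (7.67%).

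The largest rises were those of Lig1, Rfc2, Uhrf1, Fen1, Ung and E2f1. Lig1 rose by 0.84 (SE 0.16, adjusted p = 0.00172), with the array values given above separating the groups completely, and its second probe by 0.73 (adjusted p = 0.0325 over all kept probes). The differences of its 4 kept probes spread over 0.74. Rfc2, a clamp loader subunit, measured 8.70, 8.70, 8.44, 9.13 and 9.24 in KHR, 8.33, 8.70, 8.71 and 8.90 in KHR-N+/- and 8.83, 8.79, 8.56, 8.76 and 8.75 in KHR-N-/- tumours. Rfc2 measured 8.13, 8.21, 8.53, 8.47 and 8.54 in KR-N+/- and 9.35, 9.25, 9.02 and 9.08 in KR-N-/- tumours. All 4 KR-N-/- arrays were above all KR-N+/- and all KHR-N-/- arrays. Rfc2 rose by 0.80 (SE 0.14, adjusted p = 0.00125), or 1.74-fold. Uhrf1 rose by 0.69 (SE 0.20, adjusted p = 0.022), from 8.71 ± 0.38 (SD, n = 5) to 9.40 ± 0.25 (SD, n = 4).

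Fen1 rose by 0.63 (SE 0.18, adjusted p = 0.0211) and Ung by 0.63 (SE 0.19, adjusted p = 0.0262), so that all 3 measured Okazaki and repair enzymes passed on their brightest probes. The differences of the 3 kept Ung probes spread over 0.59. E2f1, a transcription factor of the G1/S boundary, rose by 0.59 (SE 0.16, adjusted p = 0.0137), from 6.53 ± 0.17 to 7.12 ± 0.18 (SD, n = 5 and 4), with no overlap. Mcm5 rose by 0.53 (SE 0.11, adjusted p = 0.00354), to levels (9.12 to 9.49) still below 13 of the 14 KHR-type arrays. The others that rose were Mcm2 (0.46), Cdt1 (0.49), Pold1 (0.54), Pole (0.51), Rpa1 (0.39), Tk1 (0.53) and Chaf1b (0.52), where Pold1 is the catalytic subunit of polymerase delta.

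Rpa3 was the exception. This small RPA subunit measured 7.19, 6.95, 6.87, 7.22 and 7.39 in KHR, 7.13, 7.04, 7.06 and 7.26 in KHR-N+/- and 7.05, 6.99, 6.79, 7.01 and 7.05 in KHR-N-/- tumours. Rpa3 measured 6.87, 7.22, 6.49, 6.60 and 6.79 in KR-N+/- and 6.34, 6.23, 6.42 and 6.47 in KR-N-/- tumours. The 4 KR-N-/- arrays were the lowest of the 23, and the 5 KR-N+/- arrays were spread over most of the range. Rpa3 fell by 0.43 (SE 0.13, adjusted p = 0.0231). Mcm4, Rrm1 and Tyms, which separated the tumour types above, differed between the KR groups by 0.02, -0.04 and 0.17, and did not pass (adjusted p = 0.939, 0.878 and 0.548).

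The count of 15 genes fell to 6 without KR-N-/- replicate 2 and was 10 to 17 in the other fits that left out 1 array. Calls of Mcm5, Pole, Rfc2, Rpa1, Lig1 and Chaf1b passed in all 23 such fits. Those of Cdt1, E2f1, Fen1, Mcm2, Rpa3, Tk1, Uhrf1 and Ung were lost in 1 to 5 fits, each of them without KR-N-/- replicate 2 among them, at adjusted p up to 0.14, and that of Pold1 in 15. The further arrays without which a call was lost were KR-N+/- replicates 1 (Mcm2, Fen1, Uhrf1, Ung), 2 (Rpa3), 3 (Tk1), 4 (Cdt1, Mcm2, Tk1, Uhrf1) and 5 (Cdt1, Tk1) and KR-N-/- replicates 1 (Cdt1, Fen1, Mcm2, Rpa3), 3 (Tk1) and 4 (Ung). Of the muscle markers 2 of 12 fell (Ckm and Mb) and 1 rose (Actn3), and 5 of 8 basal epithelium, 6 of 11 fibroblast and 2 of 7 endothelial markers rose with 0 lower. Of the suprabasal epithelium markers 3 of 8 fell (Krt4, Krt13 and Sprr3) and 0 rose, with list means of 11.74 ± 0.17 in KR-N+/- and 10.74 ± 0.27 in KR-N-/- tumours (SD, n = 5 and 4). With the muscle covariate 8 genes passed (Mcm5, Pole, Rfc2, Rpa1, Rpa3, Lig1, Chaf1b and E2f1) with a median of 0.30 over the 41, and without the 3 arrays highest in muscle markers 3 did (Mcm5, Rfc2 and Lig1), with a median of 0.32. The part of these cell types in these differences was not tested. Under median scaling 0 of the 41 genes passed, of 3 that passed in all, while the median of the 41 was 0.33 against 0.03 for all genes and 36 were again above 0.

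**Figure D4:**
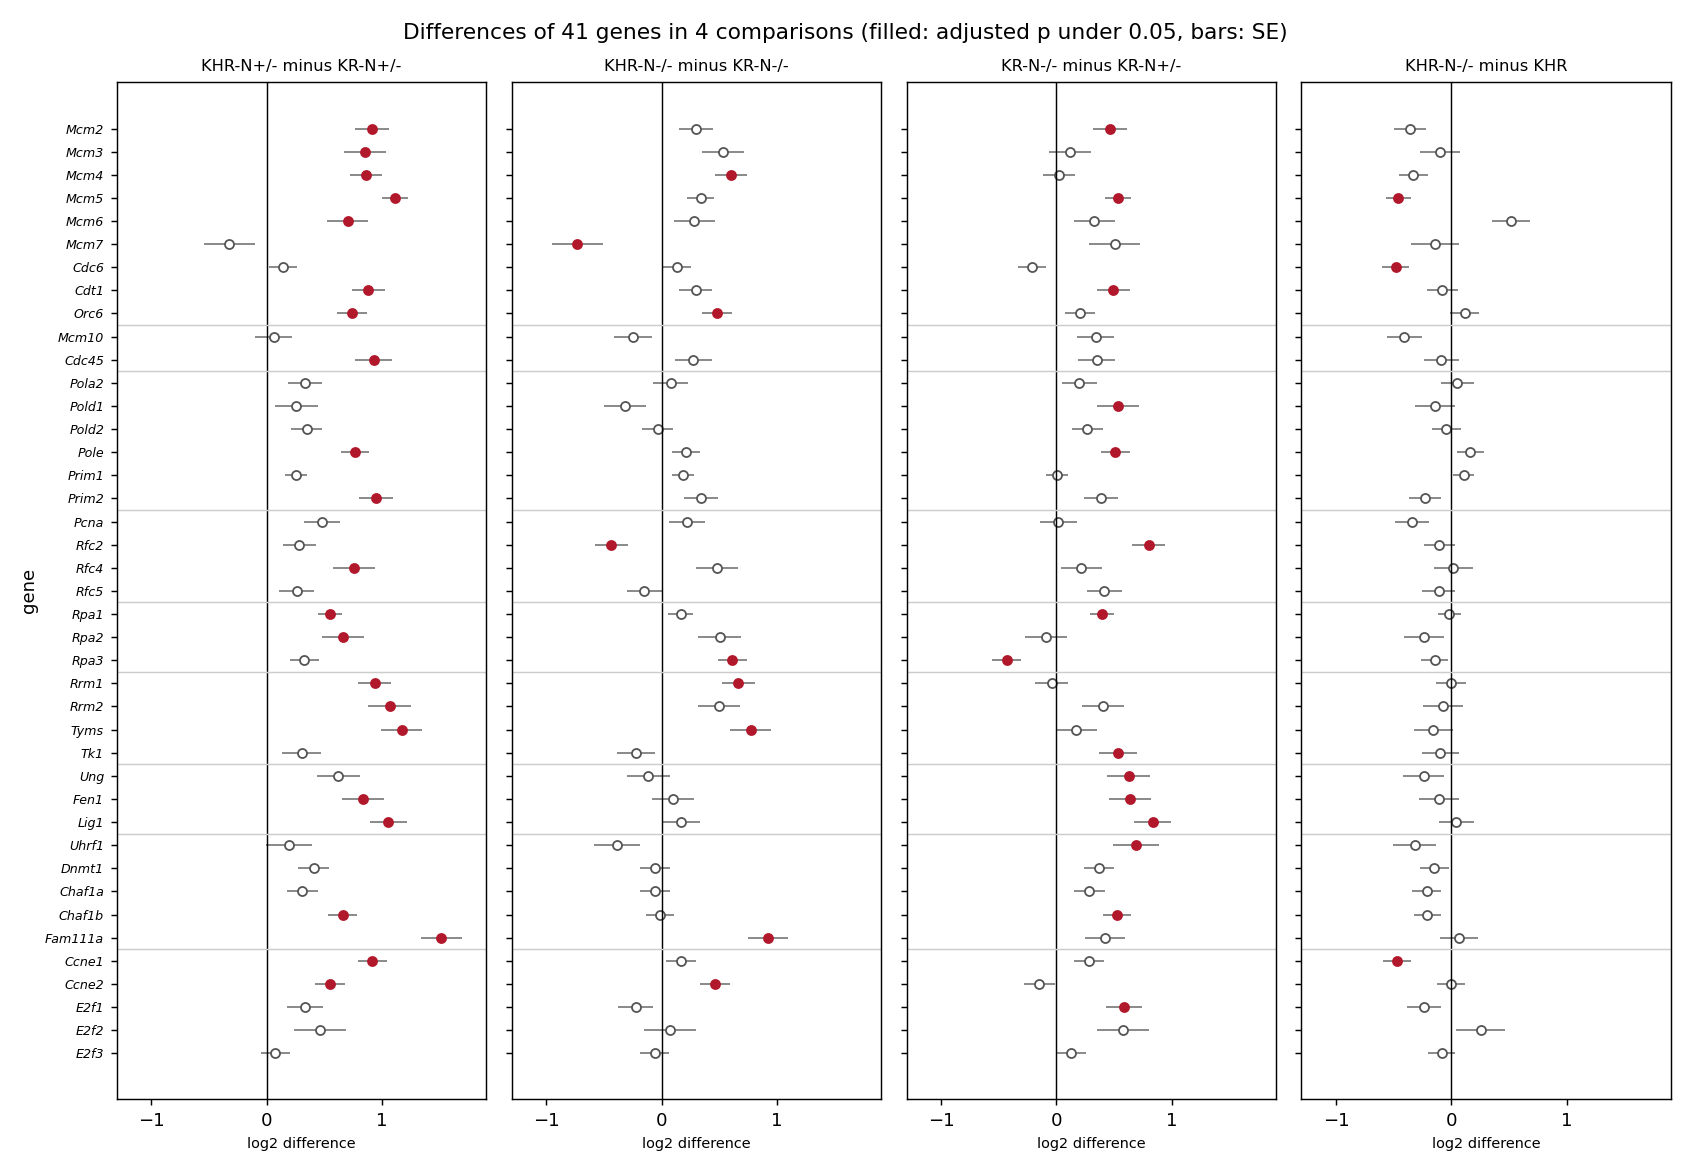
Log2 differences of the 41 genes (rows, in the order of roles) in 4 comparisons, with standard errors (bars); filled points passed at an adjusted p under 0.05. Most points lie to the right of 0 in the 2 panels that subtract KR-N+/-, and the KHR-N-/- minus KHR panel shows 3 filled points, all to the left.

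Between the 2 tumour types without Notch1 more members passed as higher in the KHR type than as lower. The share that passed as lower was below that of all genes. Of the 41 genes, 7 were higher in KHR-N-/- than in KR-N-/- tumours and 2 were lower. Over all genes tested 6.31% passed as higher and 6.5% as lower. The median difference was 0.17 against -0.03 for all genes, with 27 of the 41 above 0 and 14 below. The groups did not overlap for 10 genes in the upward direction (9.19% of all genes) and for Rfc2 in the downward direction (10.9%).

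Fam111a again had the largest difference, 0.92 (SE 0.18, adjusted p = 0.00199). The nucleotide genes Tyms and Rrm1 were higher by 0.77 (SE 0.18, adjusted p = 0.00721) and 0.66 (SE 0.14, adjusted p = 0.00437), the licensing genes Mcm4 and Orc6 by 0.60 (SE 0.14, adjusted p = 0.00664) and 0.48 (SE 0.13, adjusted p = 0.0185), and Rpa3 by 0.61 (SE 0.13, adjusted p = 0.00351). Ccne2 was not detected on any KR-N-/- array, so its level there is only a bound. Set against the lowest detected signal of each KR-N-/- array, it was at least 1.16-fold higher in KHR-N-/- tumours (means of 4.71 against a bound of 4.50 and a measured 4.25, adjusted p = 0.0229). The dim group's bound comes from that array floor, and the fitted difference of 0.46 is not a fold for this gene.

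The 2 genes that passed as lower in KHR-N-/- tumours were Mcm7, a helicase subunit, and Rfc2. Mcm7 fell by 0.73 (SE 0.22, adjusted p = 0.0319), from 6.40 ± 0.47 in KR-N-/- to 5.67 ± 0.31 in KHR-N-/- tumours (SD, n = 4 and 5), with KR-N-/- replicate 3 at 5.76 inside the KHR-N-/- range. Rfc2 fell by 0.44 (SE 0.14, adjusted p = 0.0491), and was 0.29 higher (adjusted p = 0.533) when arrays were scaled to their medians in place of quantile normalization. Mcm5, Cdt1, Lig1 and Fen1, which separated the types at 1 Notch1 copy, differed here by 0.34, 0.30, 0.17 and 0.10, with adjusted p of 0.0517, 0.174, 0.527 and 0.775. Mcm6 was at 0.28 on its brightest probe and did not pass, while its 2 other probes passed at 0.59 and 0.98 (adjusted p = 0.0201 and 0.000227 over all kept probes).

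The count of 9 was 5 without KHR-N-/- replicate 4 and 5 without KR-N-/- replicate 4, and 6 to 13 in the other fits that left out 1 array. The calls of Mcm4, Rpa3, Rrm1, Tyms and Fam111a passed in all 23 of them. That of Ccne2 was lost without KHR-N-/- replicates 2 or 4 or KR-N-/- replicates 2 or 4, that of Orc6 without KHR-N-/- replicate 4 or KR-N-/- replicates 2 or 4, that of Mcm7 in 7 fits and that of Rfc2 in 16, at adjusted p up to 0.0728, 0.0549, 0.116 and 0.138. Under median scaling 4 genes passed as higher (Mcm3, Rpa3, Tyms and Fam111a) and 0 as lower. The median was then 0.72 over the members and 0.39 over all genes, and 40 of the 41 lay above 0. Muscle markers were lower for 2 of 12 and higher for 0, with a median over the list of -0.21 that turned to 0.46 under median scaling. Suprabasal epithelium markers were higher for 2 of 8 (Ivl and Sprr3) and lower for 0, with list means of 11.62 ± 0.23 in KHR-N-/- and 10.74 ± 0.27 in KR-N-/- tumours (SD, n = 5 and 4), the macrophage marker Cd163 was higher and the endothelial marker Pecam1 lower. The part of these cell types in the members' differences was not tested. With the muscle covariate Mcm7, Rpa3, Rrm1, Tyms and Fam111a passed, and without the 3 arrays highest in muscle markers Mcm4, Rpa3, Rrm1, Tyms and Fam111a did.

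Within KHR tumours, where all 3 Notch1 states were measured, 3 genes were lower without Notch1 and 0 were higher. Over all genes tested 4.57% passed as higher and 2.76% as lower in KHR-N-/- against KHR tumours. The median difference of the 41 was -0.11 against 0.01 for all genes with 32 of the 41 below 0, but under median scaling of the arrays it was 0.05 against 0.11 with 27 above 0. The 3 genes were Mcm5, which fell by 0.46 (SE 0.11, adjusted p = 0.00857), Cdc6 by 0.48 (SE 0.11, adjusted p = 0.00981) and Ccne1 by 0.47 (SE 0.12, adjusted p = 0.0158). At an unadjusted p under 0.05, 8 of the 41 genes (19.5%) passed, against 20.8% of all genes.

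Cdc6, which opens origins to the helicase, measured 5.30, 5.59, 5.34, 5.27 and 5.14 in KHR, 5.04, 5.03, 5.09 and 5.11 in KHR-N+/- and 4.91, 4.75, 4.89, 4.80 and 4.88 in KHR-N-/- tumours. Cdc6 measured 4.70, 4.86, 5.11, 4.71 and 5.24 in KR-N+/- and 4.70, 4.40, 5.01 and 4.72 in KR-N-/- tumours. The 3 KHR-type groups did not overlap each other: every KHR array was above every KHR-N+/- array, and every KHR-N+/- array above every KHR-N-/- array. Cdc6 was chosen for display after its values were seen, and neither step passed. The step from KHR to KHR-N+/- was -0.26 (adjusted p = 0.45 over all kept probes). That from KHR-N+/- to KHR-N-/- was -0.22 (adjusted p = 0.771 over all kept probes). For Mcm5 and Ccne1 the KHR and KHR-N-/- arrays did not overlap, as the values above show, while KHR-N+/- overlapped KHR for both. No overlap in the downward direction held for these 3 of the 41 genes and for 1.98% of all genes. The Ccne1 call was lost without KHR replicate 2, KHR replicate 3 or KHR-N-/- replicate 5 (adjusted p up to 0.0625), and the count was 5 without KHR replicate 4.

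Muscle and fibroblast markers rose in this comparison, 9 of 12 and 10 of 11, as did 3 of 8 basal epithelium, 3 of 7 macrophage and leukocyte and 1 of 8 suprabasal markers (Ivl), with 0 lower in each list. With the muscle covariate 0 of the 41 genes passed, as under median scaling, with Mcm5 at -0.27, Cdc6 at -0.36 and Ccne1 at -0.14. The part of these cell types in the 3 calls was not tested. Mcm6 went the other way at 0.52 (SE 0.17, adjusted p = 0.0623) on its brightest probe, which did not pass, and its 2 other probes gave -0.14 and -0.15. It passed, beside the other 3, without KHR replicate 5, and the median of the 41 was then -0.03.

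Loss of 1 copy in KHR tumours gave no call: 0 of 41 genes passed in KHR-N+/- against KHR, where 0.822% of all genes passed as higher and 0.432% as lower, 1.25% in all. At an unadjusted p under 0.05, 5 of the 41 passed (11.1% of all genes did). The 3 genes with the largest t were Mcm6 at 0.61 (SE 0.18, adjusted p = 0.12), Mcm10 at -0.44 (SE 0.16, adjusted p = 0.247) and Rrm1 at 0.31 (SE 0.14, adjusted p = 0.403). These are values of the brightest probes, and the differences of the 3 kept Mcm6 probes spread over 0.50 and those of the 2 kept Mcm10 probes over 0.30. Cdc6 was below (1.46% of all genes in that direction) and Prim1 above (1.93%) without overlap. Without KHR replicate 5 Mcm6 passed, as it did without both arrays that stood apart, and it was the only 1 of the 41 in either fit. Without KHR-N+/- replicate 3 alone 0 passed. The muscle covariate also gave 0, with a median of 0.06 over the 41 against -0.01 without it.

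Loss of the second copy in KHR tumours gave 0 calls among the 41 genes, where 0.0719% of all genes passed as higher and 0.0308% as lower. The median difference of the 41 was -0.10 against 0.01 for all genes, with 32 below 0. Under median scaling it was -0.36 against -0.15, with 0 of the 41 above 0. At an unadjusted p under 0.05, 3 of the 41 passed (8.14% of all genes did). These were Ccne1 at -0.46 (SE 0.13, adjusted p = 0.198), Rrm1 at -0.31 (SE 0.14, adjusted p = 0.561) and Mcm5 at -0.24 (SE 0.11, adjusted p = 0.587). Cdc6, Rpa2, Rrm1, Ccne1 and Ccne2 lay lower in KHR-N-/- without overlap, against 2% of all genes in that direction, and 0 lay higher without overlap, against 2.91%. Without KHR-N+/- replicate 3 the count was 0 as well, of 46 genes that passed in all. It was 0 with the muscle covariate, where Ccne1 was at -0.31.

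Whether loss of the second Notch1 copy acted differently in the 2 types was tested as an interaction, the KHR-N-/- minus KHR-N+/- difference less that in KR tumours. No gene passed, 0 of 41 and 0 of 9732 (0%), with a smallest adjusted p of 0.334. The 41 genes had a median of -0.41 against -0.03 for all genes, and 40 lay below 0, Rpa3 being the exception at 0.29. At an unadjusted p under 0.05, 19 of the 41 (46.3%) passed, against 793 of all genes (8.15%). The largest t were those of Mcm5 at -0.77 (SE 0.16, adjusted p = 0.334), Ccne1 at -0.75 (SE 0.18, adjusted p = 0.334) and Lig1 at -0.88 (SE 0.23, adjusted p = 0.334). The 3 Okazaki and repair enzymes had the lowest median of any role, -0.74. With the muscle covariate the median of the 41 was -0.33, with Mcm5 at -0.62, Ccne1 at -0.47 and Lig1 at -0.64. Without KHR-N+/- replicate 3 the median was -0.46. The count was 0 of 41 under each alternative and with each array left out, and a difference between the types in the effect of Notch1 is therefore not shown for any single member.

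**Figure D5:**
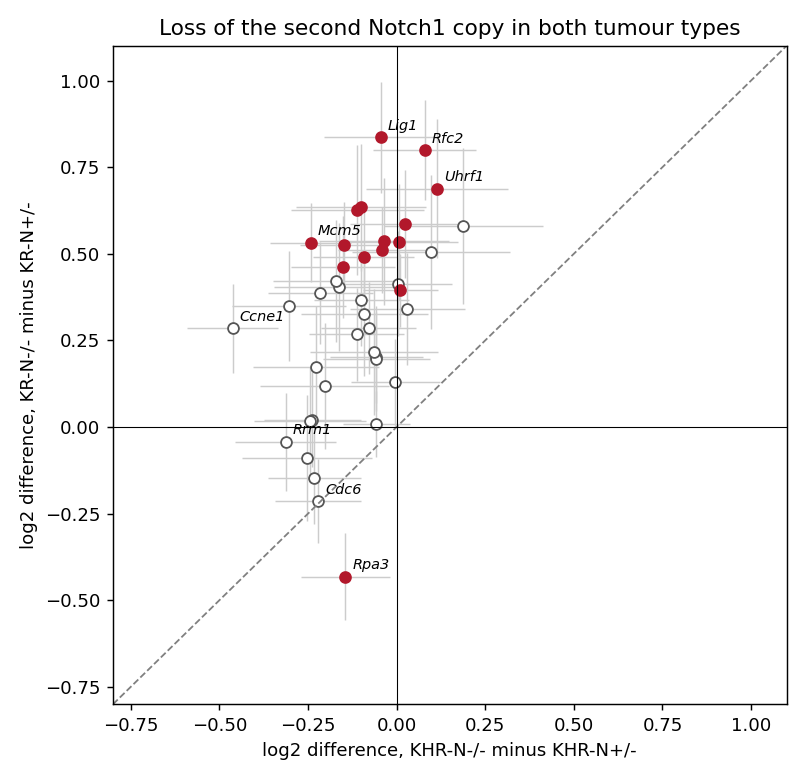
Each point is 1 of the 41 genes, with its log2 difference on loss of the second Notch1 copy in KHR tumours (horizontal axis) and in KR tumours (vertical axis), bars giving standard errors. Filled points passed in KR tumours, none passed in KHR tumours, and 40 of the 41 points lie above the dashed line of equal differences.

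Other genes of the same processes were counted from lists kept apart from the 48, which were also chosen with earlier results of these data known. Of all genes tested, 3.2% passed as higher in KHR-N+/- against KR-N+/- and 9.62% in KR-N-/- against KR-N+/-. The share was 6.31% in KHR-N-/- against KR-N-/- and 4.57% in KHR-N-/- against KHR tumours. As lower, 2.37%, 6.63%, 6.5% and 2.76% of all genes passed in the same order. Of 42 further replication factors 29 were measured. In KHR-N+/- against KR-N+/- tumours 8 rose and 0 fell, led by the GINS subunit gene Gins4 (0.85 (SE 0.10, adjusted p = 1.7e-05)), the fork protection gene Tipin (0.67), Dbf4, the activating subunit of the origin kinase (0.82), and the histone chaperone gene Asf1b (1.09). The list's median was 0.25, against 0.62 for the members. In KR-N-/- against KR-N+/- 4 rose, among them the alternative clamp loader gene Chtf18 (0.75), Gins4 (0.36) and the origin kinase gene Cdc7 (0.53), and Asf1a fell by 0.35. In either direction 16.2% of all genes passed there, near the share of this list, whose median was 0.14. In KHR-N-/- against KR-N-/- 4 rose (Tipin, Gins4, Top1 and Dbf4, at 0.66, 0.46, 0.91 and 0.64).

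The 22 measured other G1/S control genes moved in both directions. In KHR-N+/- against KR-N+/- tumours 7 rose and 2 fell: Cdk2, the kinase partner of cyclin E (0.65), and the inhibitor genes Cdkn2c (0.64) and Cdkn2a (1.28) rose, while the inhibitor gene Cdkn2b fell by 0.73. In KR-N-/- against KR-N+/- 5 rose, led by Fbxw7, which targets cyclin E for destruction (0.66), E2f4, a repressive E2F (0.54), cyclin D3 gene Ccnd3 (0.61) and the inhibitor gene Cdkn1c (0.68). In KHR-N-/- against KR-N-/- 2 rose and 4 fell, among them cyclin D1 gene Ccnd1, which fell by 1.17. In KHR-N-/- against KHR tumours 2 rose, Cdkn1c (1.11) and Ccnd3 (0.44).

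Mitosis genes act after replication, and their list mean too was lowest in KR-N+/- and next lowest in KR-N-/- tumours. The mean over the 14 measured was 7.44 ± 0.24, 7.53 ± 0.36 and 7.54 ± 0.10 in KHR, KHR-N+/- and KHR-N-/- and 6.67 ± 0.22 and 7.19 ± 0.15 in KR-N+/- and KR-N-/- tumours (SD, n = 5, 4, 5, 5 and 4). In KHR-N+/- against KR-N+/- 11 of 14 rose, among them Cdc20, an activator of the anaphase-promoting complex (1.37 (SE 0.14, adjusted p = 2.25e-06)), Top2a, a topoisomerase (1.19), Nusap1, a spindle protein (1.21), and the mitotic kinase gene Cdk1 (1.03). In KR-N-/- against KR-N+/- 8 rose, led by the spindle motor gene Kif11 (0.80), Cdc20 (0.66), Tpx2 (0.76) and Aurka (0.77). In KHR-N-/- against KR-N-/- 5 rose, led by Cdk1 (1.22). In the comparisons within KHR tumours 0 of 14 passed, with medians of 0.09 and 0.09 against KHR and 0.01 between KHR-N-/- and KHR-N+/-.

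Of 9 measured repair genes that work at replication forks, 2 rose in KHR-N+/- against KR-N+/- tumours, the mismatch repair gene Msh6 (0.75 (SE 0.08, adjusted p = 8.86e-06)) and the helicase gene Blm (0.56). In KHR-N-/- against KR-N-/- 2 rose, Msh6 (0.41) and Rad18, which modifies PCNA at stalled forks (0.49).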

How the data were processed

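RNA from 23 mouse oral tumours was labelled as biotin cRNA and hybridised to Illumina MouseRef-8 v2 arrays, per the labels' protocols. The submitters' processing notes name GenomeStudio and Partek without versions. The authors deposited, per the file headers, a non-normalized table of probe intensity and detection p-value, used here, and a table of background-subtracted intensity values of the same arrays, used as an alternative (the sources used here do not give their normalization). Of the table columns, 46 were not used. Probes were named through the platform annotation (23978 of 25697 had a gene).

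Intensities were background-corrected by normexp from the detection p-values (limma nec, offset 16), put on the log2 scale and quantile-normalized. The offset shrinks differences of dim genes. Probes detected at p under 0.05 on at least 4 arrays were kept, and the brightest probe stood for a gene. limma 3.58.1 in R 4.3.3 fitted 5 group means to all 23 arrays with empirical Bayes variances on 18 residual degrees of freedom, and contrasts were adjusted by Benjamini-Hochberg over 9732 genes, at a threshold of 0.05. The script was tested on simulated data. Members and lists were chosen with earlier results of these data known. In each comparison the members that passed are named, or the 3 with the largest t where fewer did. Values per array are given for members that passed in at least 2 comparisons and for Notch1, and for Cdc6 by a choice made after its values were seen. From the other lists, genes that passed are named, at most 4 per comparison by t. Replicate numbers were not used to pair arrays. Of 43 pairs of the same number in different groups, 16 correlated above 0.1 (range -0.328 to 0.476). Their median correlation was 0.053, against -0.0104 for pairs of other numbers, which does not settle whether arrays were paired. Alternatives covered background correction, scaling, filtering, probe choice, variance prior, array weights, a replicate block, covariates for intensity and muscle markers, and arrays left out. The precision is limited by the number of arrays. A search for a PCNA-binding pattern in proteins that had been planned was not run.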

Additional observations from a re-analysis of the deposited data

Results flagged for a closer look

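Of 95 sets of array values for a named gene in 1 group, 6 held an array whose gap to the nearest of the others passed Dixon's 95% critical value, and chance gives about 1 in 20. In KR-N+/- tumours Ccne1 was 4.775 in replicate 1 against 5.16 to 5.312 in the others, and Ccne2 was 4.791 in replicate 5 against 4.269 to 4.316. In KHR tumours Chaf1b was 7.838 in replicate 5, against 7.364 to 7.48. In KHR-N-/- tumours Mcm4 was 10.32 in replicate 4, against 10.01 to 10.08, and Rpa3 was 6.787 in replicate 3, against 6.988 to 7.052. In KHR-N+/- tumours Pole was 5.577 in replicate 1, against 5.925 to 5.956.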

How the results depend on the processing

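The counts of members called are 3, 0, 0, 15, 22 and 9 for KHR-N-/- minus KHR, KHR-N+/- minus KHR, KHR-N-/- minus KHR-N+/-, KR-N-/- minus KR-N+/-, KHR-N+/- minus KR-N+/- and KHR-N-/- minus KR-N-/-, and 0 for the interaction. They stayed within 1.5 times without background correction, with an offset of 50, on the authors' processed values, without the detection filter, over all kept probes and with another variance prior. With 1 array left out in turn they ran from 2 to 5, 0 to 1, 0 to 0, 6 to 17, 19 to 24, 5 to 13 and 0 to 0. Under median scaling the median of all genes was 0.11, 0.29, -0.15, 0.03, 0.65 and 0.39 in the same order. In the main fit that median was 0.01, 0.003, 0.01, 0.04, 0.01 and -0.03. Median scaling gave 0 calls in the first comparison, 0 in KR-N-/- minus KR-N+/-, 39 in KHR-N+/- minus KR-N+/- and 4 in KHR-N-/- minus KR-N-/-, where Rfc2 turned from -0.44 to 0.29. Relative to all genes, the members' medians were then -0.07, 0.08, -0.21, 0.30, 0.75 and 0.33. Array weights gave 7, 4 and 1 calls within KHR tumours and 17 in KHR-N-/- minus KR-N-/-. In that comparison a fit to its 2 groups gave 15 and an intensity covariate 3. The muscle covariate gave 0, 8, 0 and 5 in the comparisons with calls, and leaving out the 3 arrays highest in muscle markers, chosen after the data were seen, gave 3 in KR-N-/- minus KR-N+/- and 5 in KHR-N-/- minus KR-N-/-. Without KHR replicate 5 and KHR-N+/- replicate 3, 1 gene passed in KHR-N+/- minus KHR. A replicate block, although the main fit took no pairing, gave 5, 1, 0, 20, 23, 12 and 0. The causes of these changes were not tested. Ccne2, Prim1, Pcna and Cdc6 were not detected on all arrays, which limits what their differences show.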
